A study of Mus musculus with 6 samples.

Results

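The 10 Notch genes examined here were 4 receptors (Notch1, Notch2, Notch3 and Notch4), 3 ligands (Jag1, Jag2 and Dll1) and 3 target genes (Hes1, Hey1 and Heyl), taken by symbol from the 55291 genes counted in 6 RNA-seq libraries of sorted mouse mammary cells. All 10 were present in the count tables, and 9 of them had enough reads to be tested. The exception was Heyl, which had at most 2 reads in any library. The libraries fell into 3 groups of 2. TEB-distal Gpr125+ cells came from the part of the gland that holds the terminal end buds (TEBs), the growing tips of pubertal ducts, and nipple-proximal Gpr125+ cells came from the part with older ducts. Gpr125-negative cells, the comparison group, carry no region in their labels. Every library, the Gpr125-negative ones included, came from Adgra3-lz/+ mice aged 6 weeks, which bear 1 reporter allele of Adgra3, the gene for the adhesion receptor Gpr125, with β-galactosidase joined to its first transmembrane region. Both abdominal glands of 5 mice were pooled for each library. The p-values therefore rest on the spread between pools, which the main test estimated over all 3 groups together. Cells carrying CD31, CD45 or Ter119 were excluded, and the remainder were sorted for high CD49f and for the β-galactosidase substrate FDG, for which the Gpr125+ cells were positive and the Gpr125-negative cells negative. Whether distal and nipple-proximal pools came from the same mice is not given in the sources used here.

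Notch signalling passes between touching cells. A ligand of the Jagged or Delta-like kind on one cell pulls on a Notch receptor on its neighbour, ADAM proteases and then γ-secretase cut the receptor, and the freed intracellular domain enters the nucleus, where it binds RBPJ and Mastermind proteins and switches on targets such as the HES and HEY repressors. In the mammary gland the pathway is known for its part in luminal fate and for keeping basal cells in check, and Delta-like 1 has been described on basal stem cells. Notch4, Dll4, Hey1 and Heyl are also well known from blood vessels, and Notch3 from pericytes.

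Total counts ranged from 20134890 to 37296640 per library, which put 3 reads, the limit below which a level was treated as not measured, at 0.0645 to 0.147 CPM (counts per 1000000 reads, scaled by the TMM method). The libraries of a group differed widely from each other. The median gap over the 17268 genes tested was 1.65 on the log2 scale between the 2 Gpr125-negative libraries, 1.20 between the TEB-distal ones and 0.59 between the nipple-proximal ones. Over the 9 Notch genes tested it was 1.88, 0.92 and 0.40. Mitochondrial reads made up 0.301% to 3.15% of the counts. Adgra3 itself went against the sort labels, since its mean was highest in the group labelled Gpr125-negative, with 35.7 and 18.6 CPM under the label Gpr125-negative, 15.0 and 4.83 in TEB-distal and 19.2 and 12.3 in nipple-proximal libraries, so every direction given below is one between libraries as labelled. The summed level of 12 basal markers, the cell type that a high CD49f gate selects, was 3393 and 3554 CPM in Gpr125-negative, 4017 and 23030 in TEB-distal and 9449 and 14950 in nipple-proximal libraries. Against Gpr125-negative, the log2 fold change was positive for 10 of the 12 in TEB-distal and for 11 in nipple-proximal libraries. Trp63 was negative in both, at -2.27 and -1.31, and Krt5 in TEB-distal, at -0.09. The summed level of 12 luminal markers lay between 1496 and 3150 CPM, and most of it came from Krt8, Krt18 and Epcam. The luminal list was less even by mean log2 CPM, from 1.90 in the second Gpr125-negative library to 4.90 in the first TEB-distal one. Prlr, for example, measured 116 CPM in the first TEB-distal library and 0 in the second. In bulk libraries such as these, fewer cells of a type and less RNA per cell cannot be told apart.

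RefSeq promoter sequences (GRCm38.p6, 250 bases before and 50 after a start site) were available for 7 of the 10 genes, Dll1 with a pair of start sites. Those of the 2 receptors and 2 ligands with the highest mean level per kilobase of exon are shown. They run up to the first exon of the GENCODE M21 model, in the direction of the gene. Capitals mark the N-box, the letters CACNAG on either strand, a sequence that HES repressors bind.

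Notch1 (chr2:26503825-26504072, minus strand, inside the longer GENCODE gene and outside its exons): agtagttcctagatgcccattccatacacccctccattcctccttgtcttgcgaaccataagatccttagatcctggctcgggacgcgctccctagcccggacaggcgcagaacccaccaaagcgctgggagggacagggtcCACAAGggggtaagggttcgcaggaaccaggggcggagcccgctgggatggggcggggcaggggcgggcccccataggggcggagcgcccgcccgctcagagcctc

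Notch2 (chr3:98013288-98013526, plus strand, before the gene): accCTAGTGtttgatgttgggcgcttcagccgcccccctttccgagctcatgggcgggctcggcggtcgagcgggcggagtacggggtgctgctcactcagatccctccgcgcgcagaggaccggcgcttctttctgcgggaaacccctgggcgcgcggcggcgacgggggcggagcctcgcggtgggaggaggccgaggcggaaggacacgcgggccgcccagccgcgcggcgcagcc

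Jag1 (chr2:137116645-137116770, minus strand, before the gene): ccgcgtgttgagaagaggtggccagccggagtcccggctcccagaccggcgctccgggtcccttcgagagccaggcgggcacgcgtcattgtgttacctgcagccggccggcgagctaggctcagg

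Dll1, inner start (chr17:15375977-15376073, minus strand, inside the gene and outside its exons): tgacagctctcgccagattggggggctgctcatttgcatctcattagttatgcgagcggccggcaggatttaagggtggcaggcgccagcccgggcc

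Dll1, outer start (chr17:15376933-15377182, minus strand, before the gene): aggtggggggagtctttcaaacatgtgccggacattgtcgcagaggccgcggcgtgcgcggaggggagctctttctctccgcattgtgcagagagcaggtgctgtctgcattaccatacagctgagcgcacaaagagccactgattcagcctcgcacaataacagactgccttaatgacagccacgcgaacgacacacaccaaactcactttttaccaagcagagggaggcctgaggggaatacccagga

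The printed stretches of Notch1 and Notch2 each held 1 N-box, beginning at position -108 and at position -247 from the start, and those of Jag1 and Dll1 held none. Over the whole 300-base windows, CACNAG occurred in 4 of the 8 records of these genes and in 42.5% of all 32851 promoter records. The core letters bound by RBPJ, TGGGAA on either strand, occurred in 0 of the 8 records and in 25.6% of all records. The E-box CACGTG, bound by HEY proteins, occurred in 0 of the 8 and in 7.15% of all. These are counts of letters in short windows, and none of the libraries measured binding.

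Gene positions below are those of GENCODE M21 on GRCm38. Among the receptors, Notch2 and Notch1 carried nearly all of the RNA. Per kilobase of exon, the only scale on which levels of different genes are compared here, Notch2 gave 43.4% to 83.4% of the summed receptor level and Notch1 12.3% to 52.6%, while Notch3 gave 0.0793% to 6.87% and Notch4 0% to 2.56%. Notch2 led in 5 of the 6 libraries. The exception was the first Gpr125-negative library, in which Notch1 led.

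Notch1 (chromosome 2, 26457903 to 26516663, minus strand), a receptor used across many epithelia, measured 141 and 15.0 CPM in Gpr125-negative, 32.4 and 16.7 in TEB-distal and 41.8 and 20.9 in nipple-proximal libraries. Both Gpr125+ groups therefore lay between the Gpr125-negative libraries, which were 9.40-fold apart. The log2 fold change was -1.67 ± 1.05 (SE) for TEB-distal against Gpr125-negative (edgeR quasi-likelihood test, adjusted p = 0.983) and -0.35 ± 1.03 for TEB-distal against nipple-proximal (adjusted p = 1). Part of its exon sequence, 1389 of 14232 bases, is shared with the overlapping genes 0610009E02Rik, Gm13568 and Mir6996, and counting was not stranded, so reads there cannot be told apart.

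Notch2 (chromosome 3, 98013527 to 98150361, plus strand), a receptor of the same build as Notch1, measured 88.2 and 45.0 CPM in Gpr125-negative, 32.6 and 85.7 in TEB-distal and 51.0 in each nipple-proximal library. The order of its group means was Gpr125-negative, TEB-distal, nipple-proximal, and no neighbours in that order were separated. Its log2 fold changes were all small beside their errors, at -0.17 ± 0.72, -0.39 ± 0.72 and 0.21 ± 0.72 for TEB-distal against Gpr125-negative, nipple-proximal against Gpr125-negative and TEB-distal against nipple-proximal.

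Notch3 (chromosome 17, 32120820 to 32166852, minus strand), the receptor best known from vascular mural cells, had 101 and 1 reads in Gpr125-negative, 81 and 48 in TEB-distal and 27 and 63 in nipple-proximal libraries. Its second Gpr125-negative library stood alone near 0 and the other 5 libraries overlapped, at 1.33 to 3.16 CPM. The log2 fold change of TEB-distal against Gpr125-negative was 1.11 ± 1.98 (edgeR, adjusted p = 1). Summed over 8 genes, pericyte markers measured 9.45 and 59.1 CPM in Gpr125-negative, 8.81 and 33.9 in TEB-distal and 35.3 and 60.2 in nipple-proximal libraries. Within the Gpr125-negative and TEB-distal pairs the sum was higher in the second library, whereas Notch3 was higher in the first. In the nipple-proximal pair both were higher in the second. Kcnj8, Abcc9 and Higd1b were at 0 in several libraries, and Rgs5 and Cspg4 were at 0 in both TEB-distal ones. The part of those cells in the Notch3 level was not tested.

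Notch4 (chromosome 17, 34564268 to 34588503, plus strand), a receptor of blood vessels, had the lowest mean of the 4 receptors over the 6 libraries, per kilobase. It had 181 and 12 reads in Gpr125-negative, 0 and 48 in TEB-distal and 8 in each nipple-proximal library. The 0 allows up to 0.117 CPM. Both nipple-proximal libraries, at 0.393 and 0.377 CPM, lay just under the lower Gpr125-negative library, at 0.407 CPM, and the TEB-distal libraries lay on both sides. For nipple-proximal against Gpr125-negative the log2 fold change was -2.47 ± 2.42 (edgeR, adjusted p = 1).

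The ligands were led by Jag1, and they stood higher than the receptors. Per kilobase, Jag1 ranked above 88.0% of all genes tested by its mean, Dll1 above 76.1% and Jag2 above 72.7%, against 64.8% for Notch2 and 54.2% for Notch1. Jag1 gave 57.7% to 77.2% of the summed ligand level in 4 libraries. Dll1 led in the other 2, with 42.7% in the first Gpr125-negative library and 46.9% in the second TEB-distal one.

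**Figure D1:**
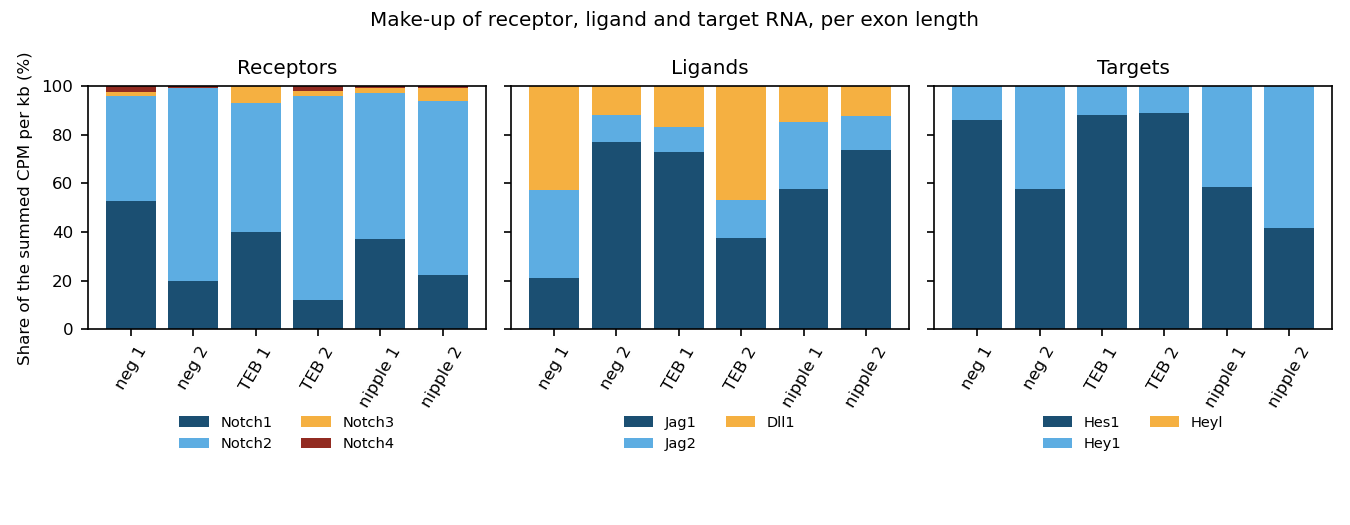
Share of the summed level per kilobase of exon (y axis, %) that each receptor, ligand and target gave in each of the 6 libraries (x axis, 2 per group). Notch2 and Notch1 fill nearly all of the receptor bars, the Jag1 share runs from 21.2% to 77.2%, and Hes1 fills 88.0% and 88.9% of the target bars of the TEB-distal libraries against 58.4% and 41.7% of the nipple-proximal ones.

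Jag1 (chromosome 2, 137081456 to 137116644, minus strand), a Jagged ligand, measured 59.1 and 196 CPM in Gpr125-negative, 233 and 68.5 in TEB-distal and 145 and 167 in nipple-proximal libraries. Its libraries spread more than 3-fold within both the Gpr125-negative group and the TEB-distal group, and all groups overlapped. The group means were close, and the log2 fold change of TEB-distal against nipple-proximal was -0.05 ± 0.86 (edgeR, adjusted p = 1), a sign that turned with RLE scaling, to 0.09, under which the median over all genes was 0.19 in place of 0.06.

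Jag2 (chromosome 12, 112907819 to 112929776, minus strand), the second Jagged ligand, measured 121 and 32.7 CPM in Gpr125-negative, 39.3 and 33.6 in TEB-distal and 82.1 and 37.9 in nipple-proximal libraries. The TEB-distal pair lay within the range of the Gpr125-negative pair. The log2 fold change was -1.07 ± 0.81 for TEB-distal against Gpr125-negative (edgeR, adjusted p = 1) and -0.72 ± 0.80 for TEB-distal against nipple-proximal.

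Dll1 (chromosome 17, 15367354 to 15376872, minus strand), the Delta-like ligand of the set, measured 86.3 and 21.9 CPM in Gpr125-negative, 38.6 and 61.7 in TEB-distal and 27.0 and 20.4 in nipple-proximal libraries. Both TEB-distal libraries were above both nipple-proximal libraries, and the Gpr125-negative libraries spanned both groups. The log2 fold change of TEB-distal against nipple-proximal was 1.08 ± 0.81 (edgeR, adjusted p = 1). Of its 4219 exon bases, 867 are shared with A930024N18Rik, whose reads cannot be told apart from those of Dll1 without strand.

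The 2 targets that could be measured, Hes1 and Hey1, stood in opposite orders in the 2 regions, although neither passed the test. Hes1 (chromosome 16, 30064384 to 30067796, plus strand), a repressor and the most widely used Notch target, measured 39.3 and 12.4 CPM in Gpr125-negative, 20.2 and 21.1 in TEB-distal and 11.9 and 6.83 in nipple-proximal libraries. Both TEB-distal libraries were above both nipple-proximal ones, with a log2 fold change of 1.14 ± 0.88 (edgeR, adjusted p = 1). The nipple-proximal pair also lay below both Gpr125-negative libraries, with a log2 fold change of -1.46 ± 0.88 (adjusted p = 1).

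Hey1 (chromosome 3, 8663359 to 8667256, minus strand), a related repressor that is prominent in blood vessels, measured 10.2 and 14.6 CPM in Gpr125-negative, 4.37 and 4.15 in TEB-distal and 13.7 and 15.3 in nipple-proximal libraries. Its largest gap between replicates was the smallest among the 9 genes, with replicates 1.05-fold apart in the TEB-distal group, 1.12-fold in the nipple-proximal group and 1.44-fold in the Gpr125-negative group. Both TEB-distal libraries lay below the other 4. The log2 fold change was -1.76 ± 0.97 for TEB-distal against nipple-proximal (edgeR, adjusted p = 1) and -1.54 ± 0.97 for TEB-distal against Gpr125-negative (adjusted p = 0.977).

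Per kilobase, Hes1 was 7.40 and 8.13 times the level of Hey1 in the TEB-distal libraries and 1.40 and 0.717 times in nipple-proximal libraries. The Gpr125-negative libraries, at 6.18 and 1.36, fell on either side of that gap. The ratio was chosen after its values were seen and was not tested. With 2 libraries against 2, an exact two-sided permutation test of any single value cannot give a p below 0.333.

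Heyl (chromosome 4, 123233556 to 123249875, plus strand), the third HEY repressor, had 2 and 0 reads in the Gpr125-negative libraries, 2 in each TEB-distal one, and 0 and 2 in nipple-proximal libraries. All 6 values were at or under the 3-read limit, so its level was not detectable at this depth and no group was compared with another.

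**Figure D2:**
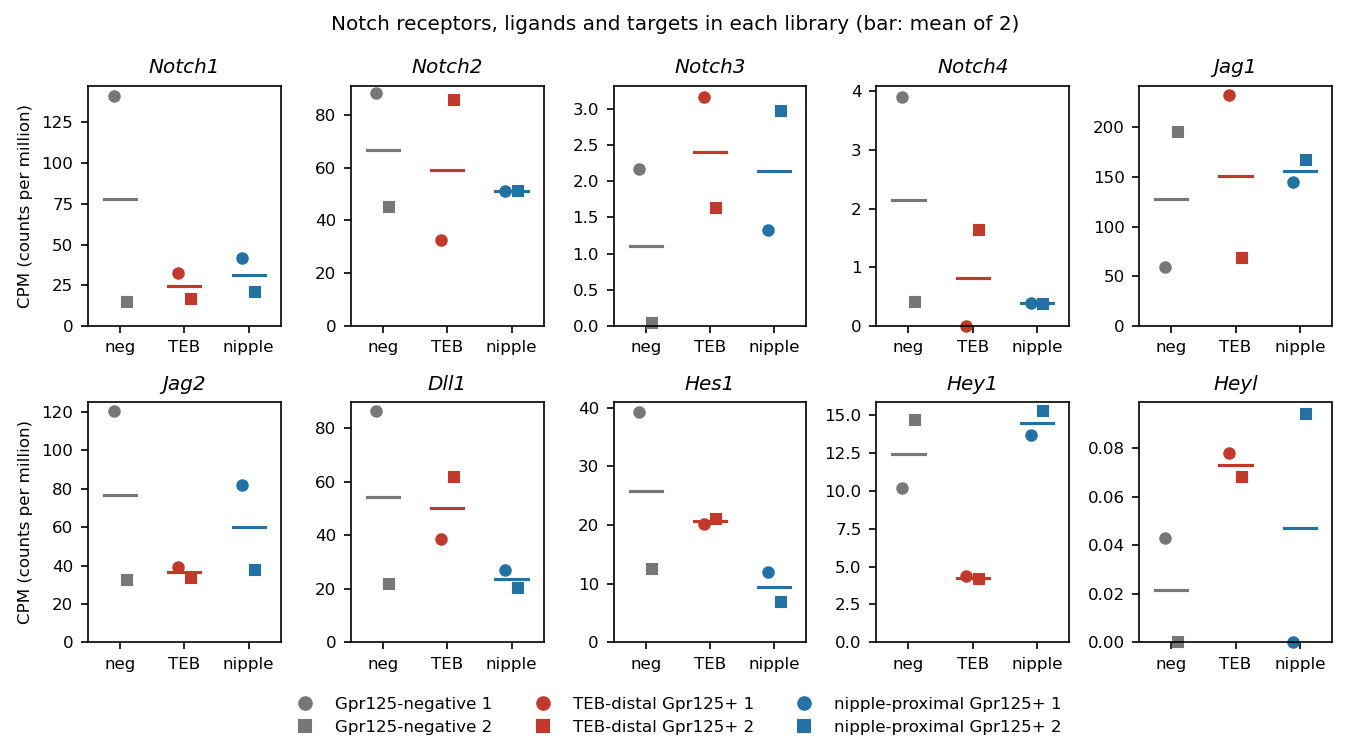
Level of each of the 10 genes (y axis, CPM, a scale of its own in each panel, from 0) in the 2 libraries of each group (x axis), circles for the first replicate and squares for the second, with bars at the group means. The first Gpr125-negative library is the highest of the 6 for Notch1, Notch2, Notch4, Jag2, Dll1 and Hes1, and the TEB-distal libraries are the lowest pair for Hey1, at 4.37 and 4.15 CPM.

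The first Gpr125-negative library was the highest of the 6 for 6 of the 9 genes tested (Notch1, Notch2, Notch4, Jag2, Dll1 and Hes1), and it was the highest for 23.6% of all genes tested. For Jag1 it was the lowest. Against its replicate it was 9.40-fold higher for Notch1, 3.93-fold for Dll1, 3.69-fold for Jag2 and 3.16-fold for Hes1, while Jag1 was 3.31-fold higher in the replicate. Its share of mitochondrial reads, 0.301%, was also the lowest of the 6. Dll1 and Hes1 had the most similar profiles of any pair among the 9 genes, with a root mean square difference of 0.283 (log2, profiles centred on their own mean over the 6 libraries), and the first Gpr125-negative library was the highest point of both.

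Whether Notch genes differed between the labelled populations was tested with edgeR over all 17268 genes, with the limits of adjusted p under 0.1 and at least 2-fold. For TEB-distal against Gpr125-negative, 0 of the 9 Notch genes passed, and 0% of all genes did. Without adjustment, 0 of the 9 had p under 0.05, against 6.05% of all genes. Their median log2 fold change was -0.33, with 2 positive and 7 negative, beside a median of 0.03 over all genes. Only Hey1, 1 of the 9, had TEB-distal libraries wholly to one side of the Gpr125-negative ones, a separation seen in 24.3% of all genes.

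For nipple-proximal against Gpr125-negative, 0 of the 9 passed and 0% of all genes did, and 0 of the 9 had an unadjusted p under 0.05, against 3.55% of all genes. The median log2 fold change was -0.39, with 3 positive and 6 negative, beside -0.003 over all genes. Notch4 and Hes1 were lower with no overlap, 2 of 9 genes or 22.2%, beside 30.8% of all genes.

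For TEB-distal against nipple-proximal, 0 of the 9 passed and 0% of all genes did, and 0 of the 9 had an unadjusted p under 0.05, against 2.21% of all genes. The median log2 fold change was 0.16, with 5 positive and 4 negative, beside 0.06 over all genes. Dll1 and Hes1 were higher and Hey1 was lower with no overlap, so that 3 of the 9 genes or 33.3% were separated, beside 33.5% of all genes. A joint edgeR test of the 3 groups also gave 0 of 9 Notch genes and 0% of all genes under an adjusted p of 0.1, with 0 of the 9 and 669 of the 17268 under an unadjusted p of 0.05. The comparisons share libraries and are not independent of each other.

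**Figure D3:**
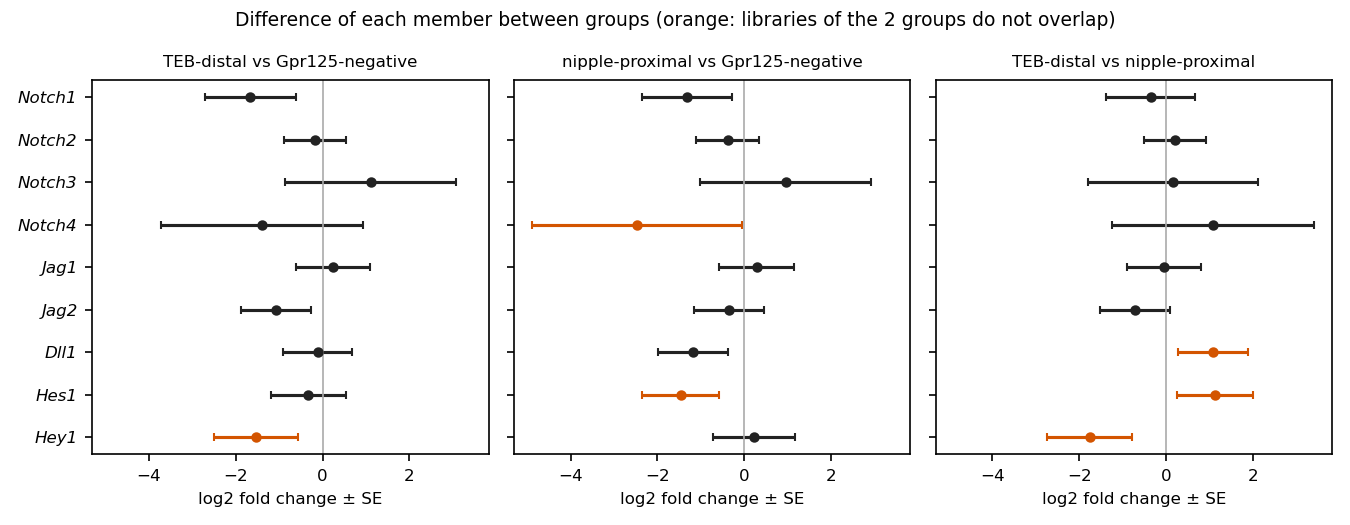
Log2 fold change with its standard error (x axis) of the 9 Notch genes tested (y axis) in each comparison, from the edgeR fit of all 6 libraries, with orange where the libraries of the 2 groups do not overlap. None of the 27 values passed the test, and Hey1 lies at -1.54, 0.22 and -1.76 from left to right.

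DESeq2, the tool used in the study, made calls where edgeR made none, and no Notch gene was among them. Fitted to all 6 libraries it called 5.43% of genes for TEB-distal against Gpr125-negative, 1.97% for nipple-proximal against Gpr125-negative and 0.844% for TEB-distal against nipple-proximal. Fitted to the 4 libraries of each comparison it called 4.33%, 2% and 2.26%. Hey1 had an unadjusted p of 0.0457 (adjusted 0.367) for TEB-distal against Gpr125-negative and 0.0407 (adjusted 0.792) for TEB-distal against nipple-proximal in DESeq2 on all 6 libraries, and an adjusted p of 0.38 for the latter on 4 libraries.

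The direction against the Gpr125-negative group rested on 1 library for most of these genes. Without the first Gpr125-negative library, 7 of the 9 log2 fold changes of TEB-distal against Gpr125-negative changed sign, among them Notch1, from -1.67 to 0.57, and Dll1, from -0.11 to 1.07, while the median over all genes moved from 0.03 to 0.53. For nipple-proximal against Gpr125-negative 5 of the 9 did, among them Jag2, from -0.35 to 0.75, with the median over all genes at 0.40. Hey1 stayed lower in the TEB-distal libraries, at -1.91 without the first Gpr125-negative library and -1.26 without the second. Against the nipple-proximal libraries it ranged from -1.85 to -1.70 whichever of the 6 libraries was left out, Dll1 from 0.68 to 1.44 and Hes1 from 0.77 to 1.59.

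**Figure D4:**
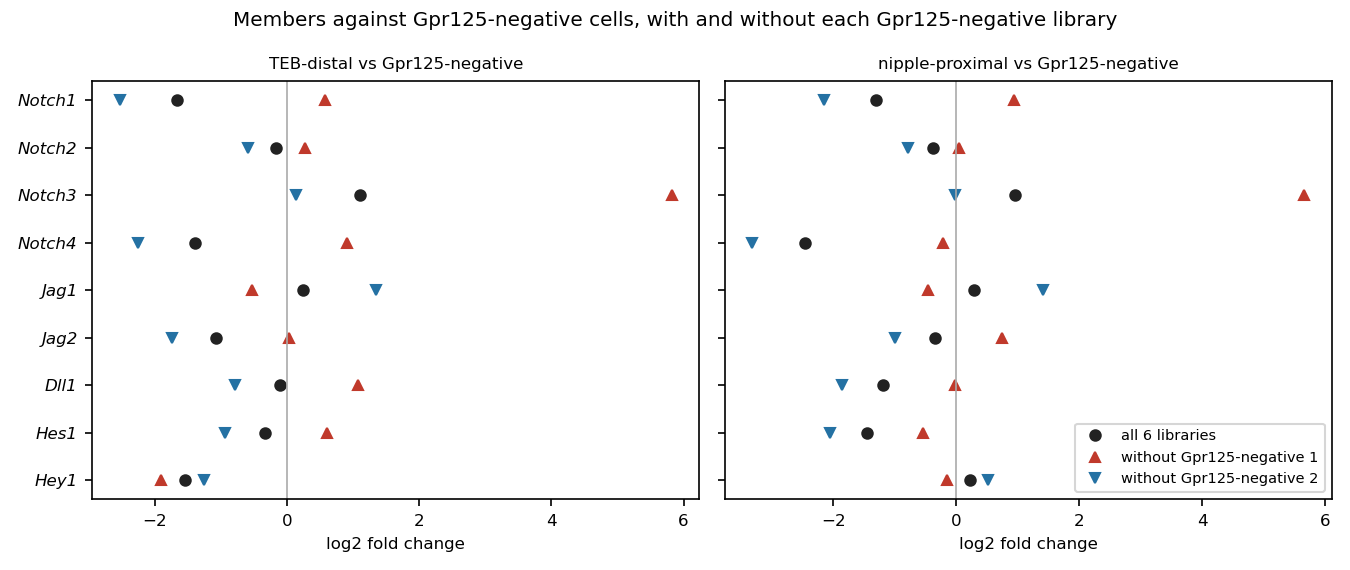
Log2 fold change (x axis) of the 9 Notch genes tested (y axis) against the Gpr125-negative group, from all 6 libraries (circles), without its first library (upward triangles) and without its second (downward triangles). The upward triangle falls on the other side of 0 from the circle for 7 of the 9 genes on the left and 5 of the 9 on the right, and for Hey1 on the left all 3 marks are below 0.

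Markers of some other cells moved with the groups. The summed level of 12 endothelial markers was 1377 and 848 CPM in Gpr125-negative, 19.7 and 22.1 in TEB-distal and 241 and 27.7 in nipple-proximal libraries, although CD31-positive cells had been excluded. Pecam1, the gene for CD31, measured 43.4 and 56.2, then 2.46 and 5.38, then 27.0 and 2.40 CPM. In the same order of libraries Hey1 measured 10.2 and 14.6, then 4.37 and 4.15, then 13.7 and 15.3 CPM. The part of endothelial cells in the levels of Hey1, Hes1, Notch4 and Dll4 was not tested. Summed fibroblast markers were 96.4 and 243 CPM in Gpr125-negative, 119 and 188.5 in TEB-distal and 116 and 64.8 in nipple-proximal libraries. Summed leukocyte markers were 80.4 and 74.9, then 142 and 308, then 196.5 and 112 CPM. Of the leukocyte sums, Cd68 alone gave group means of 57.2, 204 and 139 CPM.

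**Figure D5:**
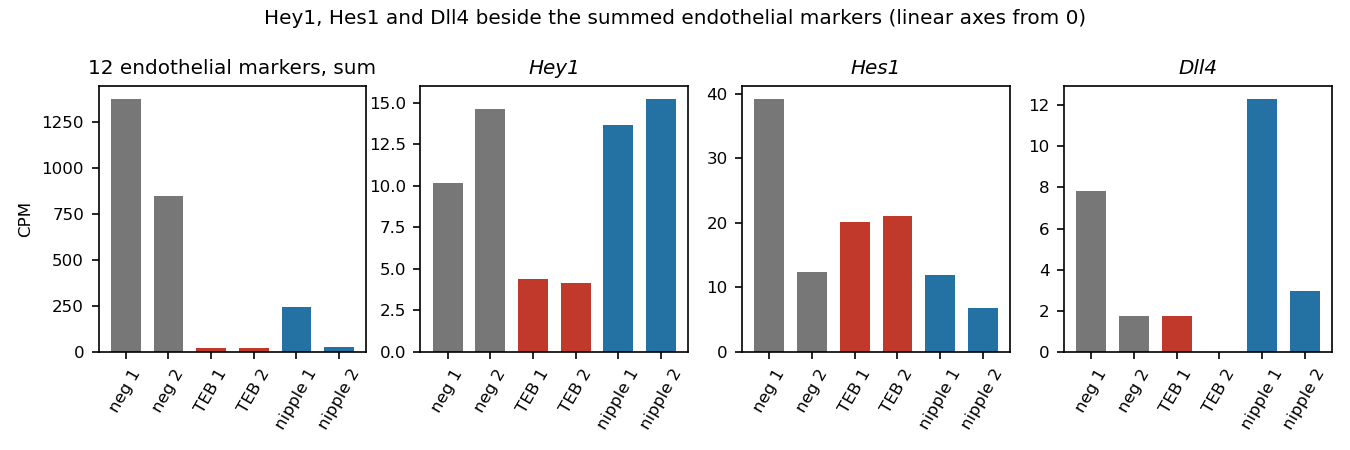
Summed level of the 12 endothelial markers and levels of Hey1, Hes1 and Dll4 (y axes, CPM, linear from 0, a scale of its own in each panel) in each of the 6 libraries (x axis). Hey1 is lowest in the TEB-distal libraries, at 4.37 and 4.15 CPM, and highest in the second nipple-proximal library, at 15.3 CPM. The endothelial sum is highest in the first Gpr125-negative library, at 1377 CPM.

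Of 59 further genes of the pathway, grouped by role, 53 could be tested. None passed the edgeR test in any comparison, as none of all genes did. DESeq2 on all 6 libraries called Aph1b and Dtx1 for TEB-distal against Gpr125-negative, Aph1b for nipple-proximal against Gpr125-negative and 0 of them for TEB-distal against nipple-proximal, in fits that called 5.43%, 1.97% and 0.844% of all genes. On the 4 libraries of each comparison it called Aph1b and Dtx1, then Neurl1a, then Mfng, a fringe transferase named after its values were seen, in fits that called 4.33%, 2% and 2.26% of all genes. For TEB-distal against Gpr125-negative, 2 had an unadjusted p under 0.05 with a higher level and 1 with a lower level, for nipple-proximal against Gpr125-negative 3 with a higher level and 0 with a lower one, and for TEB-distal against nipple-proximal 0 in either direction. These are 5.66%, 5.66% and 0% of the 53, beside 6.05%, 3.55% and 2.21% of all genes. The median log2 fold change of the 53 was -0.14, -0.04 and -0.13 in the same order. Libraries of the 2 groups did not overlap for 20.8%, 35.8% and 26.4% of the 53, beside 24.3%, 30.8% and 33.5% of all genes. The separations of single genes given below are to be read beside these shares.

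Among the 3 other ligands tested, 0 had p under 0.05 in any comparison. Dll4, the ligand of sprouting vessels, measured 7.85 and 1.73 CPM in Gpr125-negative, 1.75 and 0 in TEB-distal and 12.3 and 2.97 in nipple-proximal libraries. Both TEB-distal libraries were below both nipple-proximal ones, with a log2 fold change of -3.12 ± 2.24 (edgeR, adjusted p = 1).

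The 5 fringe and O-glycosyl transferases, which set how well receptors bind their ligands, and the 16 genes of the nuclear complex and its co-repressors had 0 members with p under 0.05. Rbpj, the DNA-binding partner of the freed receptor, measured 10.3 and 115 CPM in the Gpr125-negative libraries, 28.0 in both TEB-distal ones and 46.6 and 145 in nipple-proximal libraries. It was lower in both TEB-distal than in both nipple-proximal libraries, with a log2 fold change of -1.78 ± 1.11 (edgeR, adjusted p = 1). That direction was opposite to Hes1, at 1.14, and the same as Hey1, at -1.76.

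Of the 10 genes for ADAM proteases, furin and γ-secretase, 1 or 10% had p under 0.05 in each comparison with Gpr125-negative cells, beside 6.05% and 3.55% of all genes. Aph1b, a γ-secretase subunit named after its values were seen, had 55 and 46 reads in Gpr125-negative, 499 and 408 in TEB-distal and 163 and 423 in nipple-proximal libraries. Every Gpr125+ library was above every Gpr125-negative one, and the log2 fold change was 3.60 ± 1.10 for TEB-distal (edgeR, adjusted p = 0.803) and 3.35 ± 1.09 for nipple-proximal cells (adjusted p = 1). DESeq2 on all 6 libraries gave adjusted p = 0.00527 and 0.0452, and on the 4 libraries of each comparison 0.0786 and 0.122. Aph1c is a near-identical copy, so the split of reads between these genes is uncertain.

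Of the 13 genes of endocytosis and turnover tested, Dtx1, a Deltex ubiquitin ligase that is also a Notch target, had 1419 and 282 reads in Gpr125-negative, 2 and 33 in TEB-distal and 85 and 39 in nipple-proximal libraries. It was lower in every Gpr125+ library, with a log2 fold change of -5.05 ± 1.69 for TEB-distal cells (edgeR, adjusted p = 0.803, and 0.00622 with DESeq2 on all 6 libraries). Neurl1a, a ubiquitin ligase that acts on ligands, had 1 and 0 reads in Gpr125-negative, 64 and 0 in TEB-distal and 106 and 33 in nipple-proximal libraries. Its nipple-proximal level was at least 40.7-fold higher than 3 reads per Gpr125-negative library (edgeR, adjusted p = 1). DESeq2 gave Neurl1a an adjusted p of 0.0155 on the 4 libraries and 0.107 on all 6.

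Of the 6 other HES and HEY genes and targets tested, Nrarp, which the pathway induces and which limits it in turn, had 0 reads in either Gpr125-negative library, 15 and 7 in TEB-distal and 15 and 2 in nipple-proximal libraries. Set against 3 reads per Gpr125-negative library, its mean was at least 4.95-fold higher in the TEB-distal group (edgeR, adjusted p = 0.815). No bound is given for the nipple-proximal group, whose second library, with 2 reads, was under the 3-read limit (adjusted p = 1).

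Genes with profiles most like those of the Notch genes were sought for the 5 whose log2 level ranged over at least 2 among the 6 libraries. Nearest to Notch1 were Stx1a and Chmp6 (root mean square difference 0.156 and 0.188), to Notch3 Ccp110 and Kif13a (0.223 and 0.285) and to Notch4 the predicted genes Gm17151 and Gm7511 (0.509 and 0.58). Nearest to Dll1 were Osgep and Kcnk5 (0.18 and 0.2), and to Hes1 Gm5356 and Aopep (0.146 and 0.178). The median difference from all genes tested was 1.32 to 2.13. These profiles share 6 libraries and their depths.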

How the data were processed

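RNA was sequenced from 6 libraries of sorted pubertal mouse mammary cells, made with the SMART-Seq HT low-input kit. This kit has no molecular identifiers and marks no strand. The 3-read limits cover counting error only. The authors aligned reads to mm10 with STAR (2.7.3 per the submitters' notes) and counted genes without strand with HTSeq. The deposited counts are whole numbers per gene symbol, not normalized. Gene coordinates and exon lengths came from GENCODE M21 (GRCm38, 96.4% of symbols matched).

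Counts were fitted with edgeR 4.0.16 (R 4.3.3) on all 6 libraries, with TMM scaling, filterByExpr by group and the robust quasi-likelihood F-test. Benjamini-Hochberg adjustment ran over all 17268 genes kept. Standard errors were derived from the F statistic, so they include the spread between libraries, as the p-values do. DESeq2 1.42.0, RLE scaling, other filters, the replicate number as a block and leaving out each library were alternatives. No pair of replicates was a duplicate. Log2 levels used a prior count of 2. The 10 genes and all lists were chosen with earlier results of these data known. Named are the 10 genes, Rbpj and Dll4, and Aph1b, Aph1c and Mfng (these last chosen after their values were seen). Also named are the 2 pathway genes with the largest changes among those with an unadjusted p under 0.05 in each comparison. The 2 nearest profiles are named for each gene with a log2 range of at least 2. Markers are given as list sums, with single markers named where a list result turns on them.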

Additional observations from a re-analysis of the deposited data

Results flagged for a closer look

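Hey1 was singled out because the 2 Gpr125+ regions stood on opposite sides of the Gpr125-negative mean in every library, with 4.37 and 4.15 CPM in the TEB-distal libraries and 13.7 and 15.3 CPM in nipple-proximal libraries, around a Gpr125-negative mean of 12.4 CPM. The nipple-proximal libraries overlapped the Gpr125-negative ones, at 10.2 and 14.6 CPM. Only the Notch genes were searched for this pattern, and its share over all genes was not counted. TEB-distal and nipple-proximal libraries did not overlap in 33.5% of all genes. The difference between the regions was a log2 fold change of -1.76, which was tested and did not pass (edgeR quasi-likelihood test, adjusted p = 1, from 0.38 to 1 over the alternatives). Without the first Gpr125-negative library the nipple-proximal level fell below the Gpr125-negative one, at -0.15 on the log2 scale. Groups of 2 libraries are too small for a search for single outlying libraries.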

How the results depend on the processing

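The count of Notch genes called was 0 in each of the 3 comparisons under every alternative run. Over all genes edgeR called 0 with all 6 libraries, whereas DESeq2 on 6 libraries called 943, 321 and 133 genes for TEB-distal against Gpr125-negative, nipple-proximal against Gpr125-negative and TEB-distal against nipple-proximal, DESeq2 on 4 libraries 682, 317 and 357, edgeR without the filter on low counts 137, 58 and 39, and edgeR without the first Gpr125-negative library 747, 335 and 0. The cause was not tested. RLE scaling moved the median log2 fold change of all genes by more than 0.1 for nipple-proximal against Gpr125-negative (to -0.168) and TEB-distal against nipple-proximal (to 0.191). Leaving out 1 library at a time turned signs. For TEB-distal against Gpr125-negative the log2 fold change ranged from -2.53 to 0.57 for Notch1, -1.04 to 0.37 for Notch2, -8.95 to 0.90 for Notch4, -0.93 to 1.34 for Jag1, -1.732 to 0.026 for Jag2, -0.79 to 1.07 for Dll1 and -0.94 to 0.60 for Hes1. For nipple-proximal against Gpr125-negative it ranged from -2.16 to 0.93 for Notch1, -0.785 to 0.046 for Notch2, -0.015 to 5.662 for Notch3, -0.47 to 1.40 for Jag1, -1.01 to 0.75 for Jag2 and -0.15 to 0.51 for Hey1. For TEB-distal against nipple-proximal it ranged from -0.85 to 0.23 for Notch1, -0.67 to 0.81 for Notch2, -0.32 to 0.83 for Notch3, -6.49 to 2.14 for Notch4 and -1.12 to 0.56 for Jag1. Jag1 in the last comparison was also 0.092 with RLE scaling, 0.095 with DESeq2 on 6 libraries and 0.01 with DESeq2 on 4.

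The replicate numbers of the libraries were not shown to pair them, with correlations of deviations of -0.035, 0.194 and -0.005, and the replicate block left all counts at 0 while turning Dll1 to 0.125 (TEB-distal against Gpr125-negative) and Notch3 to -0.294 (TEB-distal against nipple-proximal). A prior count of 0.5 left the same number of Notch genes without overlap in each comparison, and edgeR on the 4 libraries of TEB-distal against nipple-proximal kept 8 of the 9 genes.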
